A study of Mus musculus with 32 samples.

Results

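The circadian clock and PAR bZIP genes described here were Per1, Per2, Per3, Cry1, Ciart, Npas2, Dbp, Tef, Hlf and Nfil3. Every probe set that the array's annotation assigned to exactly 1 of these symbols was taken. This gave 22 of the 45101 probe sets for 10 of the 18193 genes measured, with 6 probe sets for Per3, 3 each for Per2 and Tef, 2 each for Dbp, Hlf and Npas2, and 1 for each of the other genes. All values are log2 array signals from striatum, and the mice were males of 12 weeks with the background CBA X C57Bl/6. R6/2 mice, a transgenic model of Huntington's disease that carries a fragment of human huntingtin with an expanded CAG repeat, were set beside wild-type (WT) mice. Mice of each genotype were given by oral gavage either NVP-HSP990, an inhibitor of the chaperone HSP90, or its vehicle, and the study's design text states 12 mg/kg and 4 h. There were 8 R6/2 HSP990 arrays, 7 R6/2 vehicle arrays, 10 WT HSP990 arrays and 7 WT vehicle arrays. Dosing was in the afternoon and dissection usually fell near the end of the light phase, per the labels, which give no clock time for single mice. Each mouse was sampled at a single time, so a change in the level of a rhythmic transcript and a change in the timing of its rhythm cannot be told apart. The labels name no animal, so p-values measure the spread between these arrays.

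The mammalian clock is a transcriptional loop. A heterodimer of BMAL1 (gene Arntl) with CLOCK or NPAS2 binds E-box sequences and activates Per, Cry and Ciart, whose proteins feed back to repress the dimer. Dbp, a target of the same dimer, and its relatives Tef and Hlf encode PAR bZIP transcription factors that activate genes through D-box sequences, while NFIL3 binds the same D-boxes as a repressor. In the forebrain NPAS2 is abundant and can stand in for CLOCK. Per1 in addition responds quickly to glucocorticoids and to cyclic AMP signalling.

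The RefSeq promoter windows of these genes, from 250 bases before to 50 bases after an annotated start in build GRCm38.p6, were searched on both strands for 5 motifs. There were 11 windows for 9 of the 10 genes, since Per1 and Tef have 2 starts each. The E-box CACGTG was in 5 windows of 4 genes (Per1, Tef, Ciart and Cry1), against 7.15% of 32851 promoter windows. The D-box TTANGTAA was in the window of Per3, against 2.32% of all windows, and the cyclic AMP element TGACGTCA in that of Hlf, against 1.79%. The palindromic glucocorticoid element and the heat shock element of 3 units were in none of the 11 windows, and in 0.00913% and 0.603% of all windows. The windows below are shown because 3 of their genes are repressors of the loop that carry an E-box and Per3 carries D-boxes, and because these 4 genes differ in how they moved. Capitals mark the E-boxes in Ciart, Per1 and Cry1 and the D-boxes in Per3. Each is written 5′ to 3′ on the strand of the gene. Ciart lies at chr3:95882179-95882478 on the minus strand, and the more upstream Per1 start has its window at chr11:69098699-69098998 on the plus strand. Cry1 lies at chr10:85185005-85185304 and Per3 at chr4:151044616-151044915, both on the minus strand.
Ciart: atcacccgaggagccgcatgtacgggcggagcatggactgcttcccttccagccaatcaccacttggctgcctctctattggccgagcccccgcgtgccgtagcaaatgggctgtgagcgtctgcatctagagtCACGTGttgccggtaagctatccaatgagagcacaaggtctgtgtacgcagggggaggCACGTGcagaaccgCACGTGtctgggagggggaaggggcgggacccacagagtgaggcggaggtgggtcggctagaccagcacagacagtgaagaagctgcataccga
Per1: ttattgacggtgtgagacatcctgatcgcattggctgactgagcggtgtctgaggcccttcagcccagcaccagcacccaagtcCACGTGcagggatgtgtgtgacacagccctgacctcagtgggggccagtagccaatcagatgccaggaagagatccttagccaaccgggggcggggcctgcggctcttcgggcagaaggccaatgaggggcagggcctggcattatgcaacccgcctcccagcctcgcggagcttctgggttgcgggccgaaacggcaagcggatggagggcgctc
Cry1: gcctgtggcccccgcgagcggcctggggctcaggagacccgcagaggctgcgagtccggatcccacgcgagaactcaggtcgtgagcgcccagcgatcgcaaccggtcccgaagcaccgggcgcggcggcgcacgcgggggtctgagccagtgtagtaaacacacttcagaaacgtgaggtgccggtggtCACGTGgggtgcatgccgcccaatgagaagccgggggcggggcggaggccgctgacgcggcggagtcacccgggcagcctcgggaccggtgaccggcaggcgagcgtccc
Per3: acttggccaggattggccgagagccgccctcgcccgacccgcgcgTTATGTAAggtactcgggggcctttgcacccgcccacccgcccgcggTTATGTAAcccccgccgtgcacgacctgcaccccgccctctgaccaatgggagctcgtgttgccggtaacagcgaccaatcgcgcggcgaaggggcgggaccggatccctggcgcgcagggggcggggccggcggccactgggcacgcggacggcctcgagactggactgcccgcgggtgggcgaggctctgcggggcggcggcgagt
In Ciart the E-boxes began 116, 58 and 44 bases before the start, in Per1 166 bases and in Cry1 60 bases before it. The D-boxes of Per3 began 205 and 158 bases before the start. No match of different motifs overlapped. A match is a description of these letters and does not show binding.

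Array medians lay between 5.73 and 5.78. Hspa1b, Hspb1 and Dnajb1, heat shock genes that rise when HSP90 is inhibited, rose in both genotypes in all treated arrays (Hspa1b 26.5-fold in R6/2 and 44-fold in WT), with no overlap between HSP990 and vehicle. All 7 measured marker genes of medium spiny neurons, the main neurons of the striatum, had mean values between 10.13 and 12.62, far above the median of all probe sets (5.76). The difference of the 3' and 5' control probe sets of Gapdh, a sign of RNA degradation, was over 2 on 2 arrays, R6/2 HSP990 replicate 5 (5.01) and WT vehicle replicate 5 (2.23). The mean of 5 choroid plexus genes ranged from 6.08 to 10.46 over the arrays and that of 3 cortex genes from 3.64 to 8.36. No gene of either list was called in any comparison. These means had SDs of 0.77 to 1.89 within groups, so the absence of calls does not show equal dissection. Median differences of the choroid plexus genes, R6/2 minus WT, were -1.04 on vehicle and 0.14 under HSP990. Their HSP990 responses differed between genotypes by a median of 1.11. The part of dissection in the clock and PAR bZIP values was not tested. Leaving out the 2 arrays with the strong 3' bias changed 1 call of a clock or PAR bZIP gene, that of Npas2 in WT mice given below.

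Most of these genes were lower in R6/2. Under HSP990, 7 of 10 were lower in R6/2 than in WT (Per1, Per3, Ciart, Npas2, Dbp, Tef and Hlf), Nfil3 and Cry1 were higher, and Per2 did not pass the test, an adjusted p under 0.05 over 18193 genes. Of all genes 11% were lower and 22.6% higher in this comparison (33.6% in either direction). The median log2 difference of the 10 genes was -0.72, against 0.04 over all genes. On vehicle 8 of 10 were lower in R6/2, the same 7 and Per2, Nfil3 was higher, and Cry1 did not pass. The shares over all genes were 9.6% lower and 11.9% higher (21.5% in either direction), with a median of -0.74 for the 10 genes and -0.01 for all genes. These comparisons share no arrays with each other, but both tests use the same estimate of a gene's spread from all 32 arrays. With only the compared groups fitted, 7 of the 10 passed on vehicle and 9 under HSP990. Of all genes these fits called 2761 on vehicle and 6427 under HSP990, against 3906 and 6108 in the full fit.

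HSP990 moved fewer of them. In R6/2 mice Per1 alone passed and fell, 1 of 10 against 3.09% of all genes (0.918% lower, 2.18% higher). In WT mice Per1, Per2 and Ciart fell and Npas2 rose, which is 4 of 10 against 5.8% of all genes (3.57% lower, 2.24% higher). The test of the difference between the genotypes' responses called none of the 10, against 0.247% of all genes (0.17% higher, 0.077% lower). At an unadjusted p under 0.05 the difference passed for 3 of the 10 (Per2, Ciart and Npas2). The share of all genes at that threshold was not computed, so this count does not mark the 10 genes off from others. At an adjusted p under 0.05, array weights, the mean of a gene's probe sets and the removal of dim genes called 1, 2 and 1 of them. Of all genes these fits called 150, 80 and 58, against 45 in the full fit. The median response of the 10 genes was -0.03 in R6/2 and -0.16 in WT, against 0.02 and -0.03 over all genes. Each vehicle group serves both in a treatment comparison and in a genotype comparison, so the sets of values are given side by side.

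**Figure D1:**
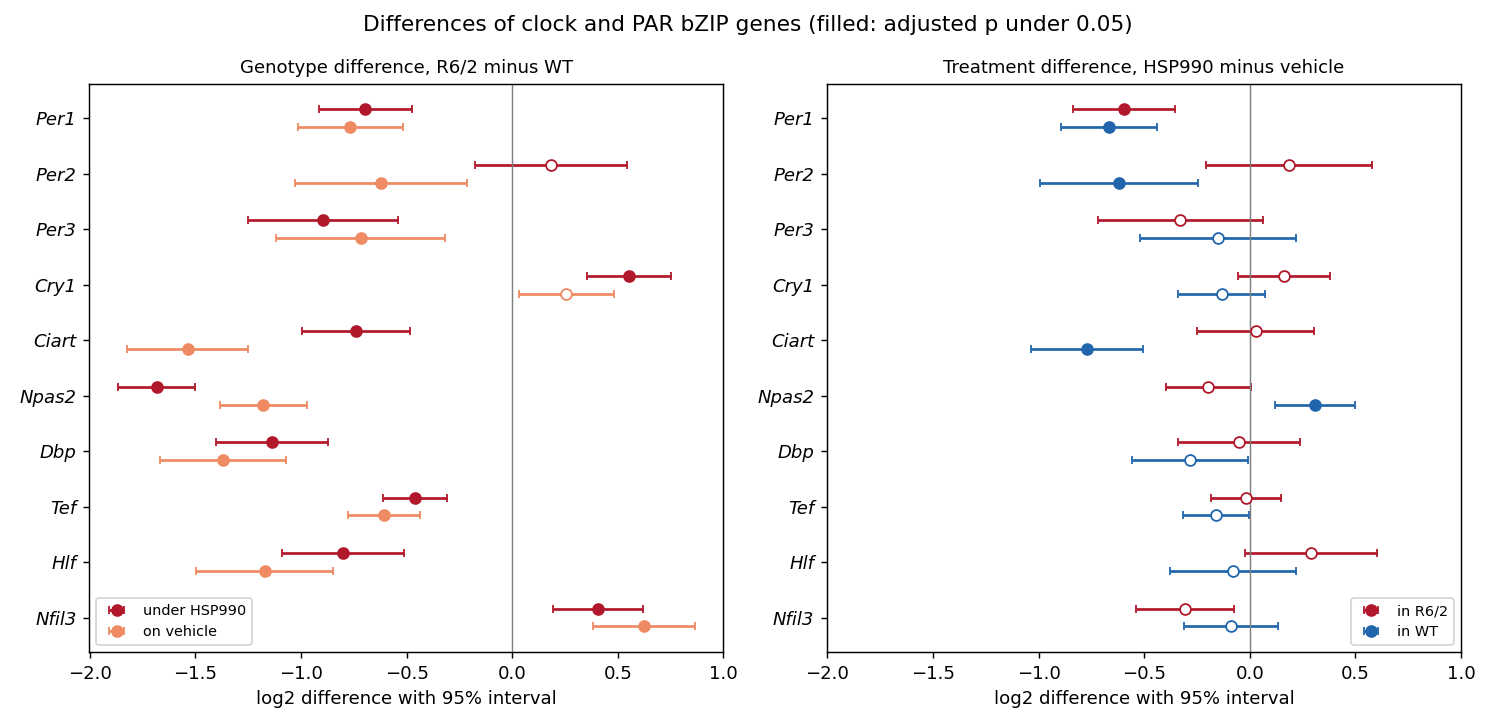
Log2 differences (x axis) of the 10 genes (y axis) with 95% intervals from the fit over 32 arrays, R6/2 minus WT at left and HSP990 minus vehicle at right. Filled points passed the test. At left 9 of 10 genes have filled points on each treatment. At right the filled points are Per1 in both genotypes and Per2, Ciart and Npas2 in WT.

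Per1, a repressor of the loop, was lower in R6/2 than in WT and fell after HSP990 in both genotypes. The lowest, median and highest values were 7.80, 8.04 and 8.31 in R6/2 HSP990 arrays and 8.41, 8.59 and 9.08 in R6/2 vehicle arrays. They were 8.44, 8.75 and 9.12 in WT HSP990 arrays and 8.86, 9.51 and 9.90 in WT vehicle arrays. All 8 R6/2 HSP990 arrays lay below every array of the other groups, and WT HSP990 and R6/2 vehicle arrays covered nearly the same range. HSP990 lowered Per1 1.51-fold in R6/2 (log2 -0.60 ± 0.12, SE; limma adjusted p = 0.00236) and 1.59-fold in WT (-0.67 ± 0.11; adjusted p = 0.00019). The responses differed by 0.07, with a 95% interval of -0.26 to 0.40. The genotype difference was -0.69 ± 0.11 under HSP990 (1.62-fold; adjusted p = 5.56e-06) and -0.77 ± 0.12 on vehicle (1.7-fold; adjusted p = 2.05e-05). From the lowest level to the highest the groups were R6/2 HSP990, R6/2 vehicle, WT HSP990 and WT vehicle, and R6/2 vehicle and WT HSP990 did not differ beyond their spread (adjusted p = 0.563).

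Per2, its paralog, showed another pattern. Values ran from 7.12 through a median of 7.61 to 8.17 in R6/2 HSP990 arrays and from 6.53 through 7.68 to 8.38 in R6/2 vehicle arrays. In WT they ran from 7.24 through 7.47 to 7.86 under HSP990 and from 7.62 through 8.04 to 8.64 on vehicle. The WT vehicle group was the highest, and R6/2 vehicle arrays were the most scattered and overlapped every other group. The HSP990 difference in R6/2 was 0.19 ± 0.19 (adjusted p = 0.716), and in WT HSP990 lowered Per2 1.54-fold (-0.62 ± 0.18; adjusted p = 0.0385). Under HSP990 the genotype difference was 0.18 with a 95% interval of -0.18 to 0.54, and on vehicle Per2 was 1.54-fold lower in R6/2 (-0.62 ± 0.20; adjusted p = 0.0233). No 2 neighbours in the order of the 4 group means differed beyond their spread. The difference between the responses was 0.81 ± 0.27 (adjusted p = 0.179, unadjusted p = 0.00492). Both Per2 calls were fragile. The fall in WT missed the threshold in 12 of 32 fits that left out 1 array (up to adjusted p = 0.0962 without WT vehicle replicate 7). The genotype difference on vehicle missed it without R6/2 vehicle replicate 1, 2 or 4 or WT vehicle replicate 7 (0.0576 to 0.0655) and when only the compared groups were fitted (0.102).

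Per3 was lower in R6/2 and did not pass the test after HSP990 in either genotype. Its lowest, median and highest values were 7.17, 7.44 and 7.90 in R6/2 HSP990 arrays and 6.54, 8.09 and 8.56 in R6/2 vehicle arrays. The WT values were 8.16, 8.40 and 8.58 under HSP990 and 8.13, 8.53 and 9.03 on vehicle. Under HSP990 the genotypes did not overlap, while on vehicle 5 of 7 R6/2 arrays lay below every WT array. The genotype difference was -0.90 ± 0.17 under HSP990 (1.86-fold; adjusted p = 0.000127) and -0.72 ± 0.20 on vehicle (1.64-fold; adjusted p = 0.00793). With only the vehicle groups in the fit, adjusted p was 0.0736. HSP990 gave -0.33 in R6/2 (95% interval -0.72 to 0.06) and -0.15 in WT (-0.52 to 0.22). Without R6/2 vehicle replicate 1, the lowest array of that group, the R6/2 response was -0.54 (adjusted p = 0.028).

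Cry1, another repressor, was higher in R6/2 under HSP990. Its values were 8.24, 8.45 and 8.77 (lowest, median, highest) in R6/2 HSP990 arrays and 7.94, 8.40 and 8.66 in R6/2 vehicle arrays. They were 7.68, 7.91 and 8.19 in WT HSP990 arrays and 7.80, 8.05 and 8.40 in WT vehicle arrays. Under HSP990 all 8 R6/2 arrays lay above all 10 WT arrays, and the vehicle groups overlapped. Cry1 was 1.47-fold higher in R6/2 under HSP990 (0.55 ± 0.10; adjusted p = 3.37e-05). On vehicle the difference was 0.26 ± 0.11 (adjusted p = 0.0971). It passed the test under 4 alternatives, the 3' bias covariate (adjusted p = 0.0443), array weights (0.0437), and without R6/2 vehicle replicate 4 (0.0362) or WT vehicle replicate 7 (0.0407). The HSP990 differences were 0.16 in R6/2 (95% interval -0.05 to 0.38) and -0.13 in WT (-0.34 to 0.07).

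Ciart, which encodes a repressor of the CLOCK and BMAL1 dimer, had the largest genotype difference of the 10 on vehicle. Values in R6/2 HSP990 arrays were 6.30, 6.53 and 6.88 (lowest, median, highest) and in R6/2 vehicle arrays 6.01, 6.45 and 7.09. In WT HSP990 arrays they were 6.90, 7.21 and 7.68 and in WT vehicle arrays 7.65, 8.09 and 8.42. The genotypes did not overlap on either treatment, and the WT groups met only at 1 array of each. Under HSP990 Ciart was 1.67-fold lower in R6/2 (-0.74 ± 0.13; adjusted p = 1.92e-05), and on vehicle 2.9-fold lower (-1.54 ± 0.14; adjusted p = 3.32e-09). The HSP990 difference in R6/2 was 0.03 with a 95% interval of -0.25 to 0.30, and in WT HSP990 lowered Ciart 1.71-fold (-0.77 ± 0.13; adjusted p = 0.00019). The responses differed by 0.80 ± 0.19, which did not pass (adjusted p = 0.0543). Over 41 alternatives that value ran from 0.71 to 0.89 with adjusted p of 0.0166 to 0.148, and 9 of them passed, among them the fits without R6/2 vehicle replicate 7 (0.0166) and replicate 5 (0.0359). The mean of R6/2 vehicle arrays (6.51 ± 0.39, SD, n = 7) was above the median of all probe sets (5.76).

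**Figure D2:**
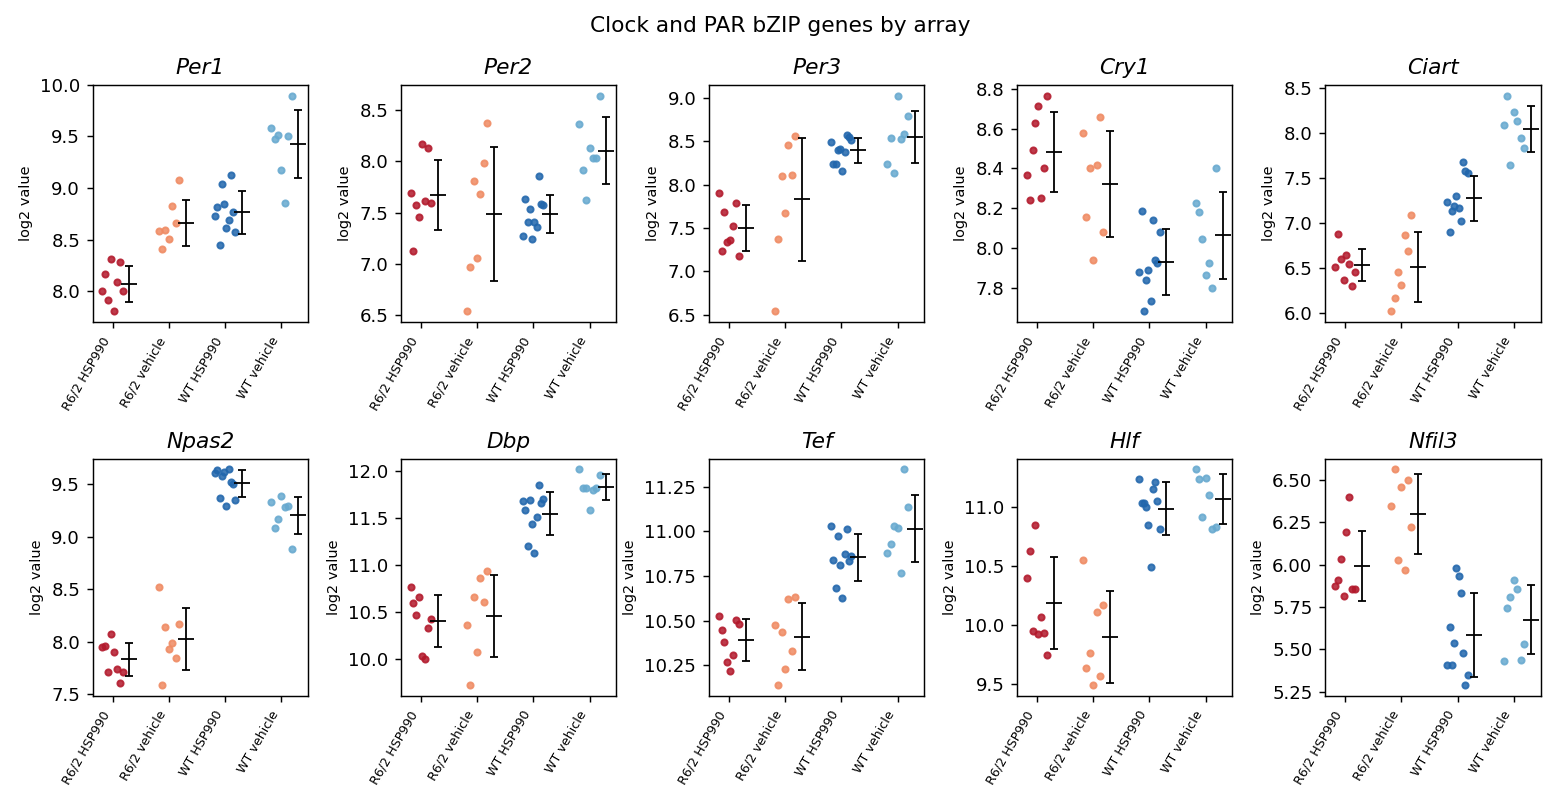
Log2 values (y axis, a separate range in each panel that does not start at 0) of the 10 genes in every array, with the group mean and SD at the right of each group of points. Groups run from R6/2 HSP990 at left to WT vehicle at right. The R6/2 groups lie below the WT groups without overlap on either treatment for Ciart, Dbp, Tef and Npas2, while Per1 steps down with genotype and with treatment.

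Npas2, the forebrain partner of BMAL1, had the largest difference of the 10 under HSP990. Its lowest, median and highest values were 7.61, 7.82 and 8.07 in R6/2 HSP990 arrays and 7.58, 7.99 and 8.52 in R6/2 vehicle arrays. In WT they were 9.30, 9.55 and 9.64 under HSP990 and 8.88, 9.28 and 9.39 on vehicle. For the brighter probe set, which stands for the gene, every R6/2 array was below every WT array. Npas2 was 3.21-fold lower in R6/2 under HSP990 (-1.68 ± 0.09; adjusted p = 1.6e-14) and 2.26-fold lower on vehicle (-1.18 ± 0.10; adjusted p = 1.32e-09). HSP990 gave -0.20 ± 0.10 in R6/2 (adjusted p = 0.326) and raised Npas2 1.24-fold in WT (0.31 ± 0.09; adjusted p = 0.043). That rise passed in 27 of 42 alternatives and missed in 15, among them quantile normalization (adjusted p = 0.072) and the fit without the 2 arrays of strong 3' bias (0.0535), and reached adjusted p = 0.113 without WT vehicle replicate 7. The responses differed by -0.50 ± 0.14 (adjusted p = 0.0947), and by the mean of both probe sets adjusted p was 0.0138.

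Among the PAR bZIP activators Dbp differed most. Values of Dbp were 10.01, 10.45 and 10.77 (lowest, median, highest) in R6/2 HSP990 arrays and 9.72, 10.61 and 10.94 in R6/2 vehicle arrays. They were 11.13, 11.62 and 11.86 in WT HSP990 arrays and 11.59, 11.82 and 12.02 in WT vehicle arrays. All 15 R6/2 arrays lay below all 17 WT arrays. Dbp was 2.2-fold lower in R6/2 under HSP990 (-1.14 ± 0.13; adjusted p = 3.16e-08) and 2.58-fold lower on vehicle (-1.37 ± 0.15; adjusted p = 4.13e-08). The HSP990 differences were -0.05 in R6/2 (95% interval -0.34 to 0.24) and -0.28 in WT (-0.56 to -0.01; adjusted p = 0.25).

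Tef, a relative of Dbp, differed by less. Its values were 10.22, 10.42 and 10.53 in R6/2 HSP990 arrays and 10.14, 10.44 and 10.63 in R6/2 vehicle arrays. In WT arrays they were 10.63, 10.85 and 11.03 under HSP990 and 10.77, 11.02 and 11.35 on vehicle. Neither treatment showed overlap between the genotypes. Tef was 1.38-fold lower in R6/2 under HSP990 (-0.46 ± 0.07; adjusted p = 9.45e-06) and 1.52-fold lower on vehicle (-0.61 ± 0.08; adjusted p = 2.71e-06). After HSP990 the differences were -0.02 in R6/2 (95% interval -0.18 to 0.15) and -0.16 in WT (adjusted p = 0.258).

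Hlf, the remaining activator, had values of 9.75, 10.01 and 10.85 in R6/2 HSP990 arrays and 9.49, 9.76 and 10.55 in R6/2 vehicle arrays. The WT values were 10.49, 11.04 and 11.24 under HSP990 and 10.82, 11.11 and 11.32 on vehicle. On vehicle the genotypes did not overlap, and under HSP990 6 of 8 R6/2 arrays lay below every WT array. Hlf was 1.74-fold lower in R6/2 under HSP990 (-0.80 ± 0.14; adjusted p = 3.21e-05) and 2.25-fold lower on vehicle (-1.17 ± 0.16; adjusted p = 1.94e-06). Its HSP990 differences were 0.29 in R6/2 (95% interval -0.02 to 0.60) and -0.08 in WT (-0.38 to 0.22).

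Nfil3, the repressor that shares the D-box, was higher in R6/2. Its values were 5.81, 5.89 and 6.40 in R6/2 HSP990 arrays and 5.97, 6.35 and 6.56 in R6/2 vehicle arrays. In WT arrays they were 5.29, 5.51 and 5.98 under HSP990 and 5.43, 5.74 and 5.91 on vehicle. On vehicle all 7 R6/2 arrays lay above every WT array, and under HSP990 3 of 8 did. The difference was 0.41 ± 0.10 under HSP990 (1.33-fold; adjusted p = 0.00248) and 0.62 ± 0.12 on vehicle (1.54-fold; adjusted p = 0.000198). HSP990 gave -0.31 ± 0.11 in R6/2 (adjusted p = 0.151) and -0.09 in WT (95% interval -0.31 to 0.13). The probe set was dim, with a mean of 5.86 against the median of 5.76 over all probe sets.

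In order of level the genes fell into few patterns. For Per3, Dbp and Tef the group means of the brightest probe set, from the lowest, ran R6/2 HSP990, R6/2 vehicle, WT HSP990, WT vehicle, and the only neighbours that differed beyond their spread were R6/2 vehicle and WT HSP990 (adjusted p = 0.0163, 1.59e-07 and 3.37e-05). The order within a genotype did not hold for other probe sets of Tef and Per3. Both other Tef probe sets had HSP990 means above vehicle means in each genotype (8.52 in WT HSP990 against 8.31 in WT vehicle arrays for 1438033_at), and 4 of the 6 Per3 probe sets had so in WT (7.92 against 7.68 for 1458176_at). For Hlf and Ciart the lowest mean was that of R6/2 vehicle, next to R6/2 HSP990, and these did not differ. Ciart then stepped up to WT HSP990 and again to WT vehicle. For Npas2 the order was R6/2 HSP990, R6/2 vehicle, WT vehicle and WT HSP990, and the 2 R6/2 groups did not differ. For Nfil3 the order was WT HSP990, WT vehicle, R6/2 HSP990 and R6/2 vehicle, and the step between WT vehicle and R6/2 HSP990 passed (adjusted p = 0.034). Cry1 had the order WT HSP990, WT vehicle, R6/2 vehicle, R6/2 HSP990 with no step between neighbours past its spread.

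Separate probe sets of a gene mostly gave the same sign between genotypes. Of the 22 probe sets, 16 were lower and 2 higher in R6/2 under HSP990, against 29.8% of 34945 probe sets called in either direction, and 16 were lower and 1 was higher on vehicle, against 17.1%. HSP990 lowered 1 of them in R6/2, against 2.52% called, and lowered 4 and raised 2 in WT, against 5.26%. The difference of responses called none of the 22, against 0.209%. The 2 Dbp probe sets gave genotype differences between -1.53 and -1.14 on both treatments. The Npas2 probe sets gave -1.68 and -1.06 under HSP990 and -1.18 and -0.50 on vehicle. Both rose in WT after HSP990 (0.31 and 0.48). For the dimmer Npas2 probe set the genotypes overlapped on vehicle (highest R6/2 array 5.90, lowest WT array 5.75). The probe sets of Tef and Per3, none of which passed after HSP990, did not share a sign. Of the 3 Tef probe sets 1, the brightest, which stands for the gene above, had a negative difference in R6/2 (range -0.02 to 0.06) and in WT (-0.16 to 0.21). Of the 6 Per3 probe sets 4 were negative in R6/2 (range -0.33 to 0.07) and 2 in WT (-0.15 to 0.24). All 3 Per2 probe sets had negative HSP990 differences in WT, between -0.66 and -0.40, and 2 of them passed. Of the 6 Per3 probe sets 5 passed under HSP990 and 4 on vehicle. The Per3 probe set with the smallest differences (1421086_at, -0.02 under HSP990 and -0.01 on vehicle) had a mean of 4.49, below the median of all probe sets. Probe sets 1421086_at and 1460662_at of Per3 and 1450184_s_at of Tef were the only 3 with a mean below that median.

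**Figure D3:**
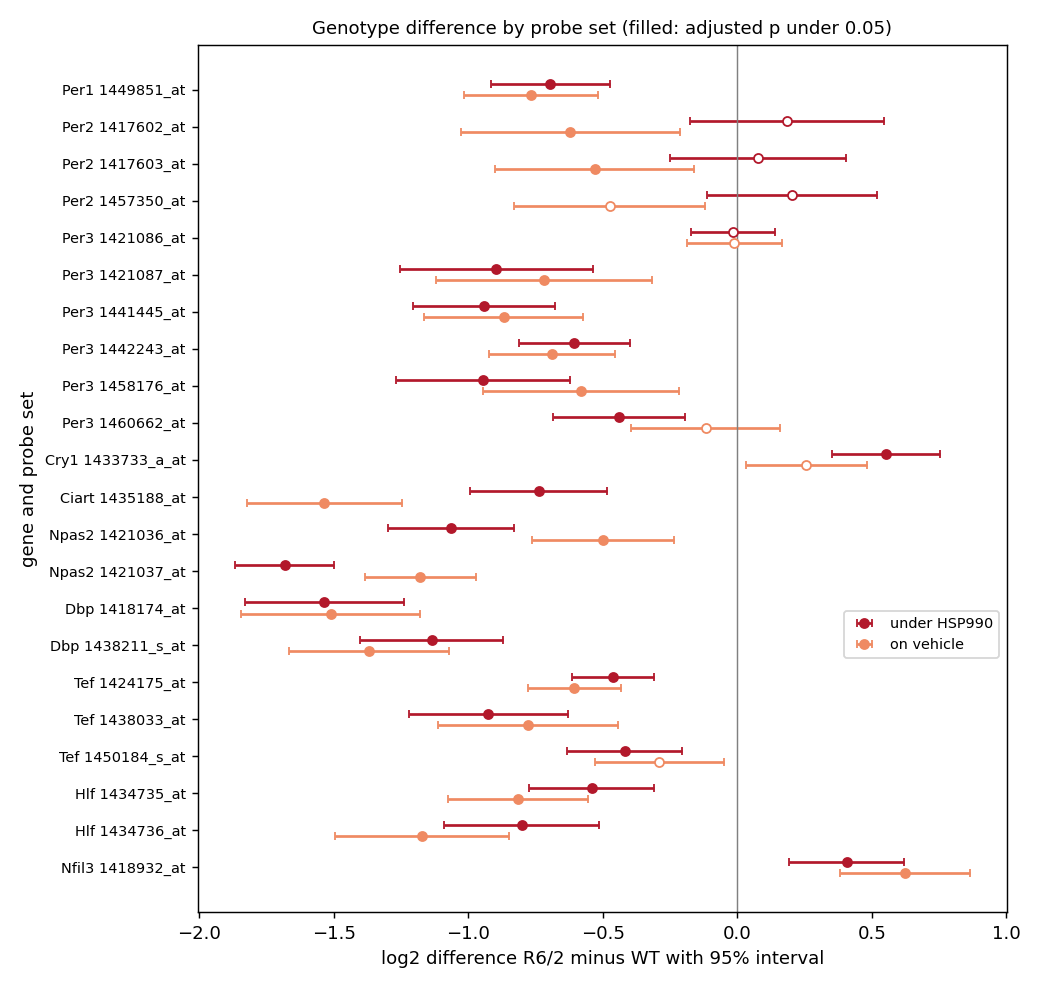
Log2 difference R6/2 minus WT (x axis) with its 95% interval for each of the 22 probe sets (y axis), under HSP990 and on vehicle. Filled points passed the test over 34945 probe sets. Points lie left of 0 for all probe sets but those of Cry1 and Nfil3 and, under HSP990, those of Per2.

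Within groups, arrays that were high for some of these genes were also high for others. Deviations from the group mean were correlated over the 32 arrays for all 45 pairs, with permutation tests that shuffled arrays within groups 100000 times and p-values adjusted over the 45 pairs. Of these, 8 pairs passed, 6 of them positive and 2 negative, and 7 of the 8 passed by Spearman's rho as well. No share of passing pairs over all genes was computed, so this count does not mark the 10 genes off from others. The most similar genes outside the 10, given below, reached r = 0.83 (Cttnbp2 with Per2). Per2 and Per3 gave r = 0.74 (adjusted p = 0.00459, and rho = 0.65, adjusted p = 0.00999) and r = 0.55 without the 2 arrays farthest from the median of Per2. Within R6/2 vehicle arrays the correlation of Per2 and Per3 was 0.92, and in the other groups 0.32 to 0.45. Hlf and Npas2 gave r = 0.72 (adjusted p = 0.00135; rho = 0.73, adjusted p = 0.00135), and the correlation was positive in each of the 4 groups. Dbp and Nfil3, an activator and a repressor of the same element, varied in opposite directions (r = -0.65, adjusted p = 0.00195, and rho = -0.67, adjusted p = 0.00247). Within R6/2 HSP990, R6/2 vehicle, WT HSP990 and WT vehicle arrays that correlation was -0.83, -0.74, -0.52 and -0.77. R6/2 HSP990 replicate 6, WT HSP990 replicate 6 and WT vehicle replicate 4 were lowest in their groups for Dbp. They were also lowest for the medium spiny neuron mean (9.92, 11.81 and 11.79) and highest for the cortex mean (7.72, 7.33 and 7.78). Among R6/2 vehicle arrays the lowest for Dbp, replicate 2, had the lowest cortex mean (3.86). Replicate 4 of that group, the second lowest for Dbp (10.07), had its lowest medium spiny neuron mean (9.64) and a cortex mean of 8.32. Replicate 7, the highest for Dbp (10.94), had the highest cortex mean (8.36). The part of tissue composition in the correlation of Dbp and Nfil3 was not tested.

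The other positive pairs were Dbp with Tef (r = 0.65), Per3 with Ciart (0.61), Per1 with Tef (0.60) and Per1 with Dbp (0.57), and the other negative pair was Tef with Nfil3 (-0.54, whose rho gave adjusted p = 0.051). Dbp and Tef did not vary together in WT vehicle arrays (-0.02), and in the other groups gave 0.54 to 0.91. Per3 and Ciart gave -0.35 in R6/2 HSP990 arrays against 0.39 to 0.92 elsewhere. R6/2 vehicle replicate 7 was the highest array of its group for Per1, Per2, Per3, Ciart, Dbp and Tef, while R6/2 vehicle replicate 1 was the lowest for Per2, Per3 and Ciart and the highest for Hlf and Npas2. Without replicate 7 the same 8 pairs passed, and without replicate 1 11 pairs passed, the added ones being Per3 with Dbp (0.56), Per3 with Tef (0.60) and Dbp with Hlf (0.55). The spread within groups of Per2 (SD 0.39) and Per3 (0.39) was larger than that of 93.8% and 93.5% of all genes, while Tef (0.16) exceeded 33.4%.

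**Figure D4:**
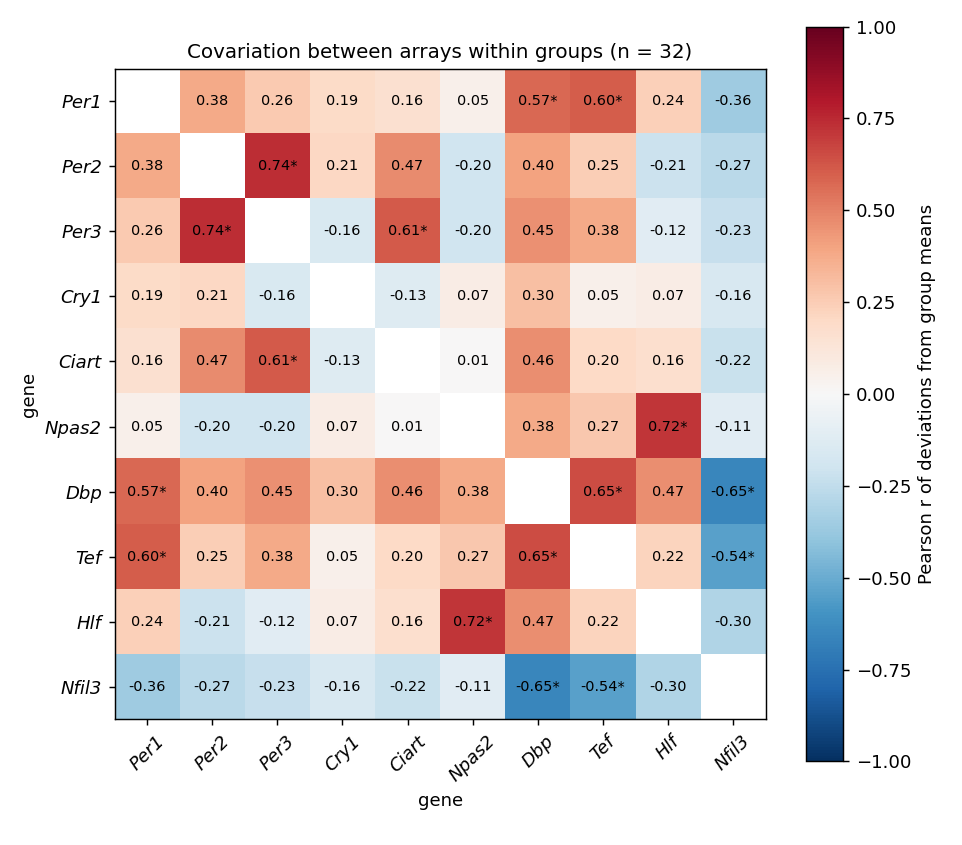
Pearson correlation of deviations from the group mean over 32 arrays for each pair of the 10 genes, by colour from -1 to 1 and as numbers. Stars mark the 8 pairs that passed after adjustment over 45 pairs. Nfil3 has negative values with all 9 other genes.

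Genes outside the 10 whose deviations were most like theirs are given as a description over the same 32 arrays, with no test. They were Ccnd2, Rgs2 and Lpl for Per1 (r = 0.75, 0.65 and 0.63) and Cttnbp2, Peli1 and Ocln for Per2 (0.83, 0.81 and 0.80). For Dbp they were Rgs9, Acvr1c and Cdh8 (0.79, 0.78 and 0.77), and for Ciart Ackr2, Fam117a and Ackr3 (0.77, 0.72 and 0.71). Rgs9 is also on the list of medium spiny neuron markers.

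Of 21 other clock genes 19 were measured, and they showed no common direction. On vehicle 4 were lower in R6/2 and 3 higher (9.6% of all genes were lower and 11.9% higher), with a median log2 difference of 0.02. Those lower were Usp2, a clock-controlled deubiquitinase gene (-0.90 ± 0.11), the repressor genes Nr1d1 (REV-ERB alpha, -0.71 ± 0.10) and Bhlhe40 (DEC1, -0.65 ± 0.16), and Pdxk, a gene of vitamin B6 metabolism that PAR bZIP factors control in mouse (-0.54 ± 0.09). Csnk1d, a kinase of PER proteins (0.27 ± 0.08), Btrc, a ubiquitin ligase subunit that acts on them (0.31 ± 0.08), and the cell-cycle kinase gene Wee1 (0.29 ± 0.09) were higher. Under HSP990 5 were lower and 5 higher (11% of all genes were lower and 22.6% higher), Bhlhe41 joining the lower ones (-0.89 ± 0.17) and Fbxl21 and Tipin the higher ones (0.65 ± 0.14 and 0.40 ± 0.12), with Wee1 at 0.71 ± 0.08. Fbxl21 was dim, with means of 5.18 in R6/2 HSP990 and 4.53 in WT HSP990 arrays. Nr1d1 was dim in R6/2, with means of 5.84 under HSP990 and 5.87 on vehicle against the median of 5.76 over all probe sets. Its WT means were 6.47 and 6.57.

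The core activators Arntl and Clock, and Nr1d2 and Cry2, were called in no comparison. For Arntl the genotype difference was -0.22 ± 0.11 under HSP990 (adjusted p = 0.112) and 0.20 ± 0.12 on vehicle (adjusted p = 0.271). For Clock it was 0.14 ± 0.07 (adjusted p = 0.108) and 0.04 ± 0.08 (adjusted p = 0.78). After HSP990, Usp2 fell in both genotypes (-0.69 ± 0.10 in R6/2 and -0.54 ± 0.10 in WT, with no overlap between HSP990 and vehicle in either), and Wee1 fell in WT (-0.35 ± 0.09). The other 17 genes did not pass in WT, where 3.57% of all genes fell and 2.24% rose, and 18 did not pass in R6/2, where 0.918% fell and 2.18% rose. Bhlhe40 gave -0.42 ± 0.16 in R6/2 (adjusted p = 0.155) and -0.47 ± 0.15 in WT (adjusted p = 0.0604). Bhlhe41 had mean values of 4.66 to 5.55 in the 4 groups, below the median of all probe sets.

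Markers of medium spiny neurons moved with the genotype difference. Of the 7 measured, 6 were lower in R6/2 under HSP990 and 6 on vehicle, with medians of -1.87 and -1.50. Of all genes 11% were lower under HSP990 and 9.6% on vehicle, the shares to set beside each count of lower genes that follows. The mean of the list ran from 9.92 to 10.89 in R6/2 HSP990 arrays and from 9.64 to 11.21 in R6/2 vehicle arrays, against 11.81 to 12.29 in WT HSP990 arrays and 11.79 to 12.22 in WT vehicle arrays. In tissue RNA, fewer cells of a type and less RNA per cell cannot be told apart. The part of these neurons in the lower clock and PAR bZIP values was not tested. Among markers of other cells, 2 of 4 astrocyte, 2 of 3 myelin, 3 of 4 microglia and 1 of 4 endothelium genes were lower in R6/2 under HSP990, and none of these was called on vehicle. Of 2 red blood cell genes, both dim, 1 was lower in R6/2 on each treatment. Of 13 activity-induced immediate early genes 7 were lower in R6/2 under HSP990 and 5 on vehicle. Of the 5 hypothalamus genes none was called between genotypes under HSP990, against 33.6% of all genes in either direction. On vehicle 1 of the 5 was higher in R6/2, against 11.9% of all genes. Of these genes 2 had a mean above the median of all probe sets, and the mean of that list stayed between 5.13 and 5.99 on all arrays.

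Genes that glucocorticoids induce moved with the HSP990 response of Per1. Of 22 such genes other than the 10, 7 fell in R6/2 and 11 in WT after HSP990, none rose, and the medians were -0.38 and -0.71. Of all genes 0.918% fell in R6/2 and 3.57% in WT. Their mean per array ran from 7.54 to 8.05 in R6/2 HSP990 arrays and from 7.57 to 8.58 in R6/2 vehicle arrays, and from 7.69 to 7.85 in WT HSP990 arrays against 7.93 to 9.51 in WT vehicle arrays. On vehicle 5 of the 22 were lower in R6/2 and none higher, against 9.6% and 11.9% of all genes. Under HSP990 4 of the 22 were lower in R6/2 and 2 higher, against 11% and 22.6% of all genes. The median genotype difference of the list was -0.32 on vehicle and 0.02 under HSP990. The highest array, WT vehicle replicate 4 at 9.51, stood apart from the others of its group (7.93 to 8.42), and its Per1 value of 9.17 was the second lowest of the 7. The part of glucocorticoid signalling in the Per1 and Per2 values was not tested. Of the immediate early genes none passed in R6/2 and 1 of 13 rose in WT after HSP990, against 2.24% of all genes.

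**Figure D5:**
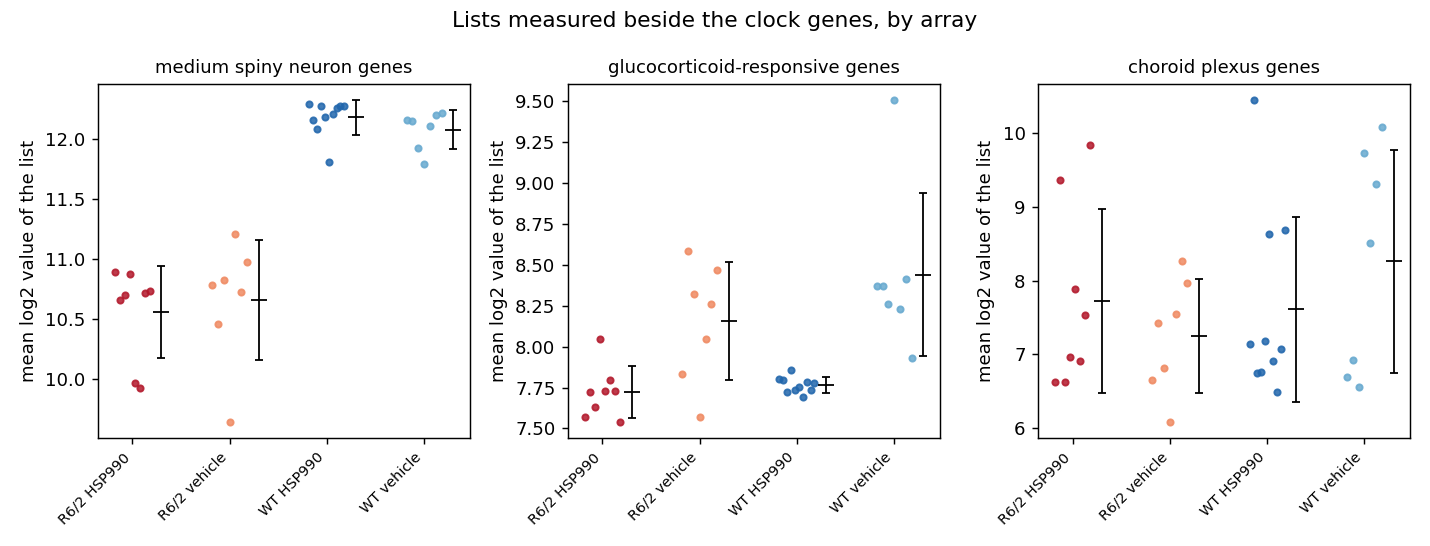
Mean log2 value per array (y axis, not starting at 0) of 7 medium spiny neuron genes, 22 glucocorticoid-responsive genes and 5 choroid plexus genes, with group mean and SD. Groups run from R6/2 HSP990 at left to WT vehicle at right. Medium spiny neuron values separate the genotypes without overlap, glucocorticoid-responsive values separate the treatments in WT, and choroid plexus values scatter in all groups.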

How the data were processed

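Total RNA from striatum was labelled with biotin from the 3' end and hybridised to Affymetrix mouse arrays, per the labels' protocols, so signal depends on RNA integrity. The values were deposited in log2 and run from 2.15 to 14.7 over 45101 probe sets, of which 64 are controls. How the authors normalized them is not given in any source used here, and no detection calls or scan batches were used. Precision is limited by the number of arrays.

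Of the probe sets, 34945 had 1 symbol, 932 several and 9160 none, by the platform's annotation. Each gene was represented by its single-symbol probe set with the highest mean (18193 genes), with no filter on low values. The 4 group means were fitted to all 32 arrays with limma 3.58.1 in R 4.3.3, with its moderated two-sided test, for 5 comparisons, and Benjamini-Hochberg adjustment ran over all genes. The same model was fitted to all 34945 probe sets. Fold changes are antilogs of log2 differences, and errors are standard errors of the fit. Correlations, figures and motif searches used python 3.11.15 with numpy 2.4.6, scipy 1.17.1, pandas 2.3.3 and matplotlib 3.10.9. Simulated data were used to test the fit. The genes named are all 10 clock and PAR bZIP genes, each other clock gene called in any comparison plus Arntl, Clock, Nr1d1, Nr1d2 and Cry2, 3 heat shock genes and the 3 most similar genes of Per1, Per2, Dbp and Ciart, clone names passed over. Members, lists and rules were chosen with earlier results of these data known.

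Alternatives were quantile normalization, median centring, removal of dim genes, the mean of a gene's probe sets, a fit of the compared groups alone, array weights, a variance trend with robust shrinkage, a block for replicate number, 3' bias as a covariate, removal of 2 arrays of strong 3' bias, and each array left out in turn.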

Additional observations from a re-analysis of the deposited data

How the results depend on the processing

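Over 10 alternatives and 32 fits that left out 1 array each, every call of Per1, Dbp, Tef, Hlf, Ciart and Nfil3 in the 4 group comparisons held, as did those of Npas2 between genotypes and of Per3 and Cry1 under HSP990. No called difference changed its sign, while 8 differences that had not passed, and 8 correlations that had not passed, did so without passing. The mean of probe sets gave 0.064 for Tef and 0.032 for Per3 with HSP990 in WT (-0.16 and -0.15 in the full fit), 0.019 for Tef in R6/2 (-0.02) and -0.045 for the difference of responses of Tef (0.14). The Tef difference in R6/2 was also 0.033 with the 3' bias covariate, 0.038 with array weights, 0.0015 with quantile normalization and 0.0082 without 2 arrays of strong 3' bias, a removal that gave 0.0029 for Dbp (-0.05). Ciart in R6/2 (0.03) was -0.011 with array weights and -0.0012 with the replicate block, and the difference of responses of Per3 (-0.18) was 0.052 with the 3' bias covariate. Leaving out 1 array gave differences for HSP990 in R6/2 of -0.056 to 0.12 for Ciart, -0.17 to 0.028 for Dbp and -0.062 to 0.020 for Tef, and a difference of responses of -0.0070 to 0.17 for Per1. The correlation of Ciart with Npas2 was -0.00030 with median centring and -0.0090 with quantile normalization, and with the 3' bias covariate those of Cry1 were -0.099 with Npas2 and 0.0013 with Per3. Without 1 of 4 arrays r ran from -0.068 to 0.26 for Ciart with Npas2, -0.041 to 0.12 for Hlf with Cry1, -0.075 to 0.11 for Npas2 with Cry1, -0.0054 to 0.10 for Per1 with Npas2 and -0.31 to 0.082 for Per2 with Npas2. For Per3 it ran from -0.14 to 0.020 with Cry1, -0.20 to 0.27 with Hlf and -0.29 to 0.25 with Npas2, the positive values being those without R6/2 vehicle replicate 1. Leaving out 1 array gave 1 to 2 calls among the 10 genes for HSP990 in R6/2, 2 to 4 for HSP990 in WT, 8 to 9 for genotype on vehicle, 9 under HSP990 and 0 to 1 for the difference of responses. The counts over all genes ranged from 309 (without R6/2 vehicle replicate 7) to 1043 (without R6/2 vehicle replicate 1) for HSP990 in R6/2, from 768 to 1194 in WT, from 3281 to 4379 and from 5740 to 6305 for genotype on vehicle and under HSP990, and from 30 to 182 for the difference of responses. The counts of the full fit were 563, 1056, 3906, 6108 and 45. For HSP990 in R6/2 the 3' bias covariate gave 368 and only the groups compared 202. For HSP990 in WT array weights gave 1815. For the difference of responses the 3' bias covariate gave 16, array weights 150, the mean of probe sets 80 and the removal of 2 arrays of strong 3' bias 25. Among the 10 genes that difference called Ciart with array weights and without dim genes (1 each), and 2 with the mean of probe sets. With the replicate number as a block, genes called for HSP990 in WT were 655 and for the difference of responses 23, and Npas2 in WT missed the threshold (adjusted p = 0.0552). The 43 same-numbered pairs of arrays had correlations between -0.29 and 0.38 (median 0.07, 19 over 0.1). Pairs of arrays with different numbers were not correlated for reference, so these values cannot decide whether the numbers pair the arrays. Correlated pairs of genes numbered 8 to 11 when 1 of 4 arrays was left out, and 3 of these removals were chosen after the data were seen. The cause of these shifts was not tested. Dim signal limits Nfil3, and the wide spread of R6/2 vehicle arrays limits Per2 and Per3.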
